A study of Arabidopsis thaliana with 6 samples.

Results

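A group of 9 MADS-box and florigen genes that set flowering time in Arabidopsis thaliana was followed in the enolase mutant los2-5. They are FLC (AT5G10140), its clade members MAF1 (AT1G77080), MAF2 (AT5G65050), MAF3 (AT5G65060), MAF4 (AT5G65070) and MAF5 (AT5G65080), then SVP (AT2G22540), SOC1 (AT2G45660) and FT (AT1G65480). The 9 genes were chosen by name, as listed locus identifiers, out of the 37051 genes of the count table. The assay was 3' RNA-seq, which reads tags from the 3' end of each transcript, in whole shoots of 2-week-old plants of the mutant los2-5 (3 libraries) and of the wild type Col-0 (3 libraries). LOS2 encodes a cytosolic enolase of glycolysis, and los2-5 is named as a mutant of it. Both genotypes had 2 days at 4 °C on soil, after which they were kept in continuous light (100 µmol m-2 s-1) at 22 °C and 60% humidity. Each replicate pooled 3 plants from its own pots. The series title asks about immune receptor genes, and no label poses a question on flowering, so the comparison below is that of los2-5 with Col-0 for these genes.

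In Arabidopsis, FLC and its relatives are MADS-box transcription factors that hold back flowering. FLC and MAF1 act in complexes with SVP, another MADS-box repressor, which bind and silence the promoting genes SOC1 and FT. FT is the mobile florigen, made in the companion cells of leaf phloem and carried to the shoot apex, where it acts with the bZIP factor FD to switch on SOC1 and the floral identity genes. Col-0 lacks a functional allele of FRI, the main activator of FLC, and so has low FLC without vernalization, the long cold treatment that silences the gene.

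MADS-box proteins bind a sequence feature, the CArG box, a run of A and T between CC and GG. The pattern, though not always the letters of a given box, reads the same on both strands. The box was searched in the TAIR10.1 sequence of RefSeq from 1000 bases before to 50 bases after the annotated start of each gene, and 7.72% of 27443 protein-coding genes held one there. Of the 9 genes, 2 held one, SOC1 and MAF1, and they are shown here with the box in capitals, 5' to 3' on the strand of the gene.
SOC1 (chr2:18811817-18811846, minus strand): aattttatctCCAAAAAAGGatattttttt
MAF1 (chr1:28954599-28954628, plus strand): ttatatcgggCCTTTAATGGgcatgtgaat
The box of SOC1 begins 711 bases before the annotated start and that of MAF1 874 bases before it. Such a match describes the letters in the window, and binding was not measured in these samples.

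Library totals ran from 4400433 to 4537653 counts in los2-5 and from 3563033 to 4598645 in Col-0. Levels are in CPM, counts relative to a common library size after TMM scaling, and means are given ± SD with n = 3 per genotype. Of the 9 genes, 6 had enough counts for the fit across all genes, and MAF4, MAF5 and FT did not. LOS2 itself (AT2G36530) averaged 119 ± 3.80 CPM in los2-5 and 113 ± 9.15 CPM in Col-0 (adjusted p = 0.708, edgeR quasi-likelihood test). Where in the gene los2-5 is mutated is stated by no source used here, and a 3' tag outside a lesion does not check the genotype. Green leaf markers were abundant in every library (29400 to 38000 CPM summed over 5 genes in los2-5 and 37500 to 41000 CPM in Col-0).

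Among the genes tested, FLC and SOC1 rose in los2-5, a repressor and a promoter of flowering, while SVP, MAF1, MAF2 and MAF3 were not called. The edgeR quasi-likelihood test, with Benjamini-Hochberg adjustment over all 13952 genes tested and a threshold of 0.05, called these 2 of the 9 genes, 6 of which were tested, both higher. DESeq2 called 0 of the 9 and limma-voom the same number as edgeR. In the edgeR fit 20.5% of all genes tested were called and 9.92% were called higher, and with so few members nothing is read from their count. Levels that did not overlap between the genotypes were seen for 4 of the 9 genes (FLC, MAF2, MAF5 and SOC1), 3 of them among the 6 tested, beside 37.2% of all genes tested.

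**Figure D1:**
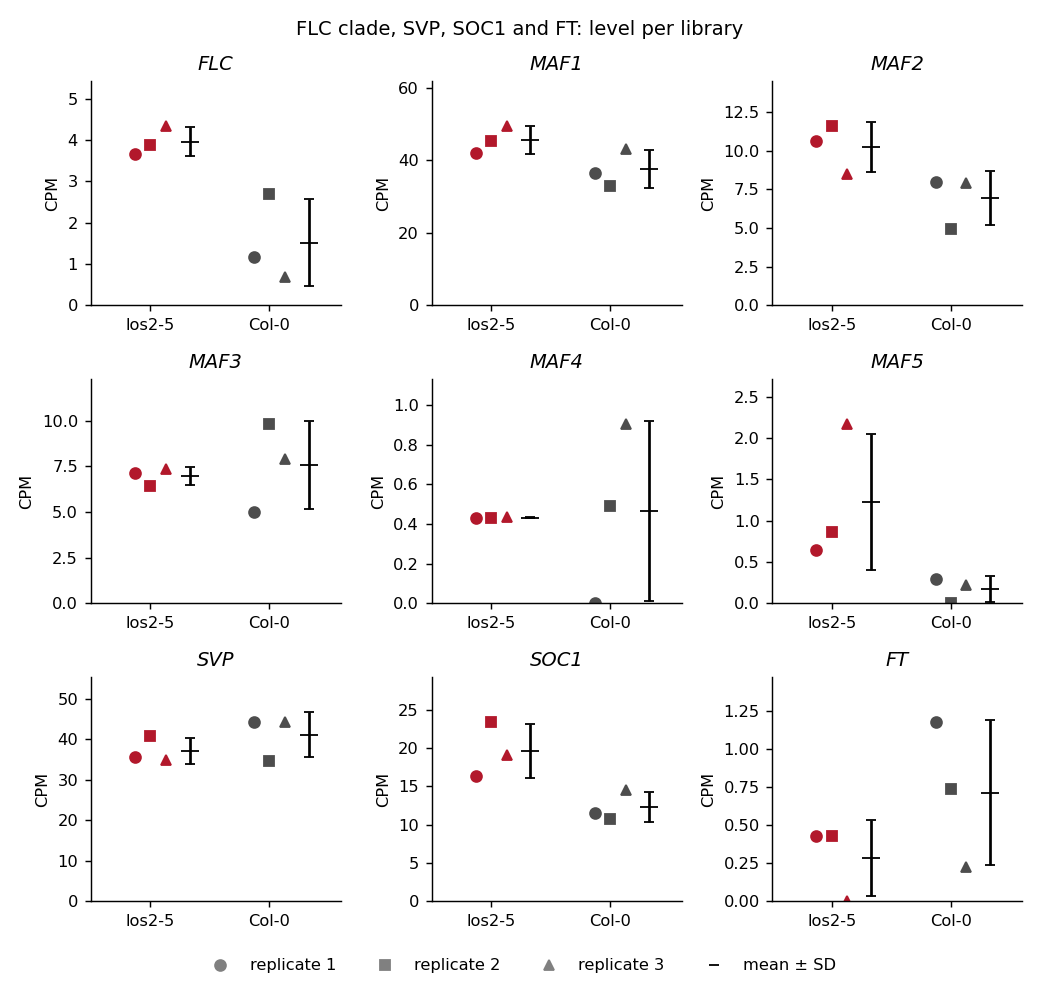
Level of each of the 9 genes in CPM on TMM-scaled library sizes (vertical axes start at 0 and differ between panels), with los2-5 in red and Col-0 in grey; symbols are replicates and bars are mean ± SD (n = 3). All FLC values of los2-5 (3.67 to 4.34 CPM) lie above those of Col-0 (0.678 to 2.70 CPM), and the same holds for SOC1 (16.4 to 23.4 against 10.8 to 14.5 CPM).

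FLC, the founding member of the clade, had few counts. The los2-5 libraries held 17, 18 and 20 counts (3.67, 3.87 and 4.34 CPM), against 4, 11 and 3 counts (1.18, 2.70 and 0.678 CPM) in the Col-0 libraries. The los2-5 values lay close together and all above the Col-0 values, among which replicate 2 was the highest. The log2 fold change was 1.37 ± 0.42 (SE; adjusted p = 0.022, edgeR), with a 95% interval of 0.51 to 2.23. FLC reached the filter's minimum of 2.26 CPM in 3 los2-5 libraries and 1 Col-0 library, so that it entered the test through los2-5. With a filter on the total count alone, a choice made after seeing the data, the adjusted p was 0.0242 in edgeR. The call was lost without Col-0 replicate 1 (adjusted p = 0.0843, edgeR), Col-0 replicate 3 (0.162), los2-5 replicate 2 (0.0534) and los2-5 replicate 3 (0.0651), and with DESeq2 (0.0872), in a range of 0.00658 to 0.162. Its log2 fold change over the alternatives was largest, 2.1, without Col-0 replicate 2 and smallest, 0.96, without Col-0 replicate 3.

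MAF1, also called FLM, which takes part in the response to ambient temperature, carried most of the clade's counts. It was measured at 41.9, 45.3 and 49.5 CPM in los2-5, against 36.6, 32.9 and 43.2 CPM in Col-0. The genotypes overlapped, since Col-0 replicate 3 lay above los2-5 replicate 1. Its log2 fold change was 0.28 ± 0.15 (adjusted p = 0.203, edgeR), with a 95% interval of -0.03 to 0.59.

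MAF2 to MAF5 stand in a row on chromosome 5, all on the plus strand, with gaps of 873, 780 and 1301 bases in the TAIR10.1 annotation. MAF2, a repressor known to keep plants from flowering after short cold spells, had 49, 54 and 39 counts in los2-5 (10.6, 11.6 and 8.47 CPM). In Col-0 it had 27, 20 and 35 counts (7.97, 4.91 and 7.91 CPM). The groups did not overlap, though the lowest los2-5 value was close to the highest of Col-0. MAF2 was not called (log2 fold change 0.56 ± 0.24, 95% interval 0.06 to 1.07, adjusted p = 0.104, edgeR). With libraries scaled by size alone its adjusted p was 0.0496 in edgeR, within a range of 0.0496 to 0.388.

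MAF3, the next gene in the row and a repressor of flowering like MAF2, was at 7.12, 6.45 and 7.38 CPM in los2-5, against 5.02, 9.83 and 7.91 CPM in Col-0. The los2-5 values lay inside the Col-0 range. The log2 fold change was -0.14 ± 0.26 (adjusted p = 0.748, edgeR), and it was 0.08 without Col-0 replicate 2. The ratio of MAF2 to MAF3 counts within a library, which no scaling touches, was 1.48, 1.8 and 1.15 in los2-5 and 1.59, 0.5 and 1.0 in Col-0. These ratios overlapped, so that a difference between MAF2 and MAF3 in their change was not seen beyond the spread.

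MAF4 and MAF5, the last genes of the row, were near the limit of detection. MAF4, which with SVP and FLC relatives represses FT, had 2 counts in each los2-5 library and 0, 2 and 4 in Col-0. Its summed counts, 6 in each genotype, gave a ratio of 0.855 with an exact 95% interval of 0.229 to 3.20. MAF5 had 3, 4 and 10 counts in los2-5, against 1, 0 and 1 in Col-0, where a count of 0 in replicate 2 allows up to 0.737 CPM. The groups did not overlap, and los2-5 replicate 3 was the highest library. Its summed counts were 17 in los2-5 and 2 in Col-0, a ratio of 7.27 (exact 95% interval 1.73 to 64.9). These intervals cover counting error alone. When genes with any count entered the edgeR fit, MAF5 had a log2 fold change of 2.66 and an adjusted p of 0.0298.

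Summed over FLC and MAF1 to MAF5, the clade stood at 64.3, 68.5 and 72.3 CPM in los2-5, against 51.1, 50.9 and 60.8 CPM in Col-0. The sums did not overlap, and the ratio of their means was 1.26. MAF1 made up 65.1% to 68.5% of the sum in los2-5 and 64.7% to 71.7% in Col-0, so the sum follows MAF1 more than any other member.

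SVP, the partner of FLC and MAF1 in repression, stood at 35.6, 40.8 and 35 CPM in los2-5, against 44.3, 34.7 and 44.3 CPM in Col-0. The groups overlapped, with Col-0 replicate 2 below every los2-5 library. The log2 fold change was -0.14 ± 0.15, with a 95% interval of -0.46 to 0.17 (adjusted p = 0.538, edgeR), and it was -0.02 with libraries scaled by size alone.

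SOC1, listed in the reference as AGL20, is a MADS-box promoter of flowering on which the photoperiod, gibberellin and age pathways meet. It had 76, 109 and 88 counts in los2-5 (16.4, 23.4 and 19.1 CPM), against 39, 44 and 64 counts in Col-0 (11.5, 10.8 and 14.5 CPM). Every los2-5 library lay above every Col-0 library, with los2-5 replicate 2 the highest. SOC1 averaged 19.6 ± 3.54 CPM in los2-5 and 12.3 ± 1.94 CPM in Col-0. Its log2 fold change was 0.67 ± 0.20 (95% interval 0.27 to 1.08, adjusted p = 0.0176, edgeR). The call was lost without Col-0 replicate 1 (adjusted p = 0.0662, edgeR), Col-0 replicate 2 (0.0817) and los2-5 replicate 2 (0.0932), and with DESeq2 (0.0526), in a range of 0.00687 to 0.0932. Log2 fold changes over the alternatives stayed between 0.53 and 0.80.

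FT, the florigen gene, gave 2, 2 and 0 counts in los2-5, against 4, 3 and 1 in Col-0. The groups overlapped, and the 0 in los2-5 replicate 3 allows up to 0.651 CPM. Summed, the 4 counts of los2-5 and 8 of Col-0 gave a ratio of 0.428, with an exact 95% interval of 0.0942 to 1.6. A difference in FT was thus not detectable at this depth. Markers of the phloem, in whose companion cells FT is made, were set beside these counts. Of 5 genes 4 were tested and 1, the sucrose transporter gene SUC2, fell (-0.74 ± 0.17, adjusted p = 0.00295, edgeR). SUC2 was at 31.3, 37.2 and 25.0 CPM in los2-5, against 62.9, 49.1 and 44.8 CPM in Col-0. The summed level of the 5 markers was 52.3 to 70.0 CPM in los2-5 and 79.8 to 102 CPM in Col-0, with 0 of the 5 at 0 counts, and SUC2 held the largest part of that sum. AHA3 (-0.32), SWEET11 (-0.36) and SWEET12 (0.40) were tested and not called. APL, with too few counts for the fit, had 19 counts in los2-5 and 30 in Col-0, with no overlap. Its ratio was 0.542 (exact 95% interval 0.288 to 0.994, counting error alone). The part of these markers in the FT counts was not tested. In whole shoots, fewer cells of a type and less RNA per cell cannot be told apart.

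**Figure D2:**
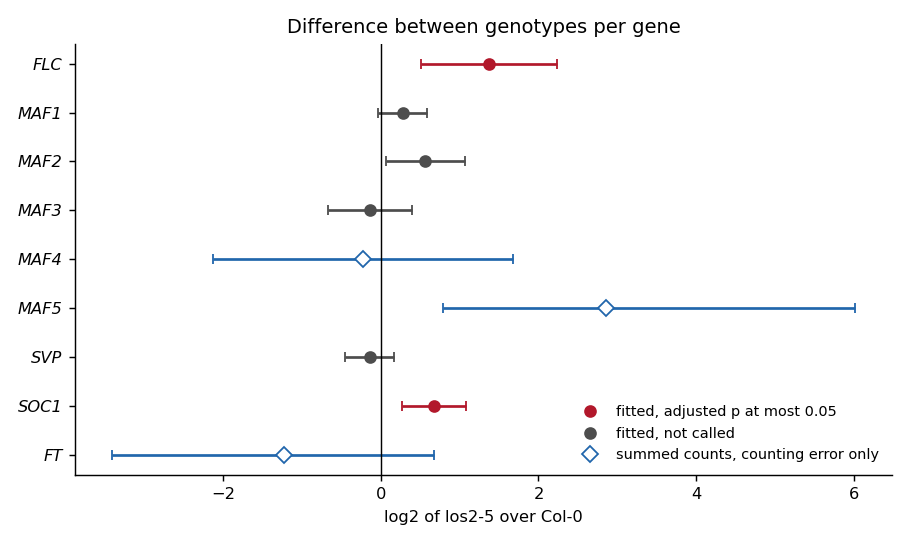
Log2 of los2-5 over Col-0 for each gene. Circles are edgeR estimates with 95% intervals (red where the adjusted p is at most 0.05); open diamonds are ratios of summed counts with exact 95% intervals that cover counting error alone. FLC (1.37) and SOC1 (0.67) are the 2 genes called, SVP and MAF3 sit at -0.14, and the intervals of MAF4 and FT span 0 widely.

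Ratios within a library show the genes against each other without any scaling, and SVP served as the common denominator. SOC1 counts were 0.461, 0.574 and 0.547 of SVP counts in los2-5, against 0.260, 0.312 and 0.327 in Col-0. MAF1 counts were 1.18, 1.11 and 1.42 of SVP counts in los2-5 and 0.827, 0.950 and 0.974 in Col-0. MAF1 thus exceeded SVP in every los2-5 library and in none of the 3 Col-0 libraries. The ratio of FLC to SVP was 0.103, 0.0947 and 0.124 in los2-5 and 0.0267, 0.078 and 0.0153 in Col-0. MAF2 over SVP did not overlap either, while MAF3 over SVP did. All 5 ratios share the counts of SVP, whose log2 fold change was -0.14, and are given as a description. In CPM alone MAF1 overlapped and was not called. A share over all genes was not computed for such ratios, and in CPM 37.2% of all genes tested did not overlap.

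**Figure D3:**
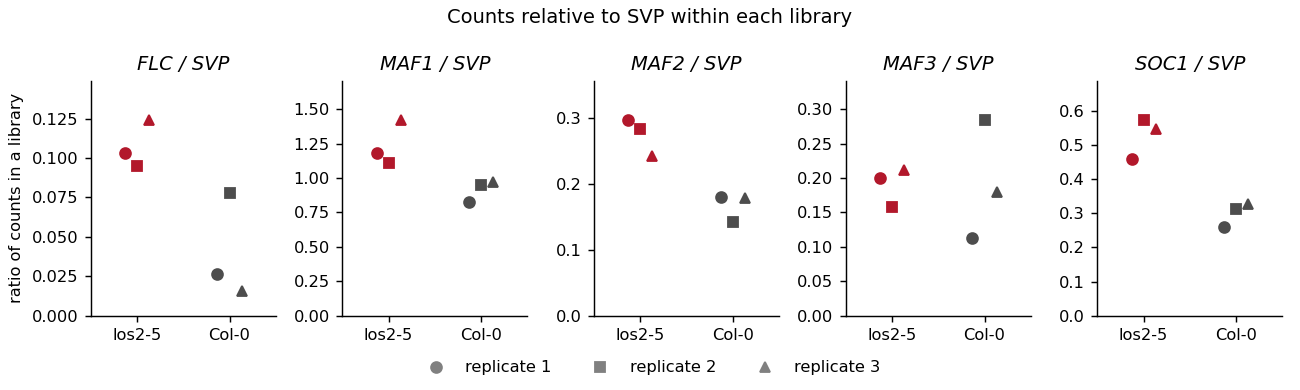
Ratio of the counts of FLC, MAF1, MAF2, MAF3 and SOC1 to those of SVP in each library (vertical axes start at 0), with los2-5 in red and Col-0 in grey and a symbol per replicate. The los2-5 libraries lie above the Col-0 libraries in each panel except that of MAF3, where los2-5 (0.158 to 0.211) lies inside the Col-0 range (0.113 to 0.284).

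Since 3' tags count transcripts from a single end, CPM was compared between genes without division by length, as a level of tags. In los2-5 the order of mean levels was MAF1 (45.6 CPM), SVP (37.1), SOC1 (19.6), MAF2 (10.2), MAF3 (6.98), FLC (3.96), MAF5 (1.23), MAF4 (0.432) and FT (0.287). In Col-0 it was SVP (41.1 CPM), MAF1 (37.6), SOC1 (12.3), MAF3 (7.59), MAF2 (6.93), FLC (1.52), FT (0.715), MAF4 (0.465) and MAF5 (0.174). In Col-0 the values of SVP and MAF1 overlapped, as did those of MAF3 and MAF2, of FLC and FT, of FT and MAF4, and of MAF4 and MAF5. In los2-5 the values of neighbours in the order did not overlap down to MAF5, while MAF4 and FT did.

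Reads of near-identical copies were a possible source of error in this family. All words of 50 bases in the last 300 bases of each annotated transcript were therefore searched in the nuclear chromosomes of TAIR10.1. The search was for exact matches, so a copy that differs within a word would not be seen. None of the words of any of the 9 genes occurred there more than once, and 0 were shared between members. Of these words 27 of MAF2 and 137 of MAF5 cross exon junctions and have no match in the genome sequence, so their uniqueness was checked among the members alone. FLC is overlapped over its full 6067 bases by AT5G01675, a long noncoding RNA on the opposite strand, which had 0 counts in all 6 libraries. No source used here states the strand setting of the counting, so sense and antisense reads at FLC may not be separated. Of the genes that flank FLC and SOC1, AT5G10130 and AGL6 had 0 counts in all 6 libraries. Their other neighbours were not called, AT5G10150 beside FLC at a log2 fold change of 0.61 ± 0.35 (adjusted p = 0.239, edgeR) and AT2G45670 beside SOC1 at -0.06 ± 0.19 (adjusted p = 0.86). The 3' end of MAF1 lies 77 bases from the 3' end of AT1G77090, a gene on the opposite strand picked for that position, which was at -0.41 ± 0.18 (adjusted p = 0.114, edgeR).

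The wider flowering pathways were described by 9 lists with 131 genes besides the members, of which 85 were tested. In edgeR 6 of these were called (7.06%), 1 higher and 5 lower, against 20.5% of all genes tested. DESeq2 called 0 of them higher and 4 lower, and limma-voom 1 and 5. Genes that control FLC were not among the calls of this fit. Activators of FLC had 19 of 22 genes tested with a median log2 fold change of 0.00, beside 0.02 over all genes tested. The autonomous pathway, whose genes silence FLC, had 10 of 12 tested with a median of 0.30, and vernalization and Polycomb genes 9 of 14 with 0.26; 8 genes of each lay above 0. FRI, the FLC activator, was at 2.66 ± 0.547 CPM in los2-5 and 2.82 ± 0.816 CPM in Col-0. FVE, which represses FLC as part of a chromatin complex, was at 115 ± 14.2 CPM in los2-5 and 92.6 ± 10.5 CPM in Col-0 (adjusted p = 0.10, edgeR). As reported, edgeR called none in 6 lists, the 3 above that control FLC and the FT relatives, other MADS-box genes and age pathway. In these lists 7 of 49 tested genes were higher and 0 lower before adjustment (edgeR p under 0.05). The share of all genes at that p was not computed. Nothing is read from the 7, since even after adjustment 9.92% of all genes tested were called higher and 10.6% lower. Neither DESeq2 nor limma-voom called any of the 49. Some edgeR alternatives did call genes of lists that control FLC, all higher. For the autonomous pathway these were 2 genes with library size alone and 1 with no filter. Leaving out los2-5 replicate 1 or los2-5 replicate 3 also gave 1 each. Without Col-0 replicate 2, 1 vernalization and Polycomb gene was called.

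The photoperiod list, whose output is FT, had 20 of 22 genes tested, 1 higher and 1 lower. TEM2, a repressor of FT, rose to 54.6, 56.7 and 53.0 CPM in los2-5, against 41.6, 45.0 and 33.9 CPM in Col-0 (log2 fold change 0.45 ± 0.15, adjusted p = 0.0309, edgeR). Every los2-5 library was above every Col-0 library, and the call was lost in 5 of 16 alternatives. NF-YC4, a subunit of the complex through which CO activates FT, fell to 12.5, 12.2 and 9.55 CPM in los2-5, against 19.8, 15.5 and 15.4 CPM in Col-0 (-0.55 ± 0.20, adjusted p = 0.049, edgeR). That call was lost in 11 of 16 alternatives. NF-YB3 had the largest change among the tested genes of this list but overlapped and was not called (-1.19 ± 0.46, adjusted p = 0.0833, edgeR). It had 37 counts in los2-5 and 72 in Col-0, and was called in 3 of the 16 alternatives. CO itself had 21 counts in los2-5 and 12 in Col-0, too few for the fit.

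In the ambient temperature list all 6 genes were tested and 1 fell, a count that ran from 0 to 3 over the alternatives. It was 2 with DESeq2 and limma-voom, 3 with a replicate block or when los2-5 replicate 1 or Col-0 replicate 2 was left out, and 0 with library size alone or when los2-5 replicate 2 or Col-0 replicate 3 was left out. ELF4 (-0.65, adjusted p = 0.059, edgeR) and LUX (-0.55, adjusted p = 0.0565), parts of the evening complex of the clock, were not called, and were called in 7 and 3 of the 16 alternatives. PIF4, a bHLH factor that activates FT in warmth, was at 27.8, 23.2 and 27.6 CPM in los2-5, against 38.4, 34.9 and 39.8 CPM in Col-0, with no overlap (-0.52 ± 0.15, adjusted p = 0.0174, edgeR). Gibberellin genes had 10 of 21 tested and 3 lower, with a median of -0.09. GA2, which encodes ent-kaurene synthase, an early enzyme of gibberellin synthesis, had the largest change among the 10 tested, at 2.59, 1.29 and 4.78 CPM in los2-5 and 7.38, 7.62 and 8.59 CPM in Col-0 (-1.44 ± 0.33, adjusted p = 0.00322, edgeR). GA3, the gene of the next enzyme, ent-kaurene oxidase, fell by 0.65 ± 0.22 on the log2 scale. RGL1, a DELLA repressor of gibberellin signalling, fell by 0.70 ± 0.20. Among list genes with too few counts for the fit, GA20OX1, the gene of a later enzyme, had 6 counts in los2-5 and 22 in Col-0 (ratio 0.233, exact 95% interval 0.0774 to 0.593). The call of GA2 held in all 16 alternatives, that of PIF4 in 13, that of RGL1 in 13 and that of GA3 in 9.

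The age pathway, in which SPL factors promote SOC1, had 7 of 14 genes tested and was not called in edgeR in either direction. SPL3 was at 8.29 ± 3.23 CPM in los2-5 and 5.24 ± 0.69 CPM in Col-0, and SPL9 at 1.73 ± 1.30 and 3.23 ± 0.747 CPM in the same order. Among other MADS-box genes, AGL24, a partner of SOC1, stood at 0.48 ± 0.37 (adjusted p = 0.396, edgeR). TSF, the closest relative of FT, had 1 count in each genotype.

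**Figure D4:**
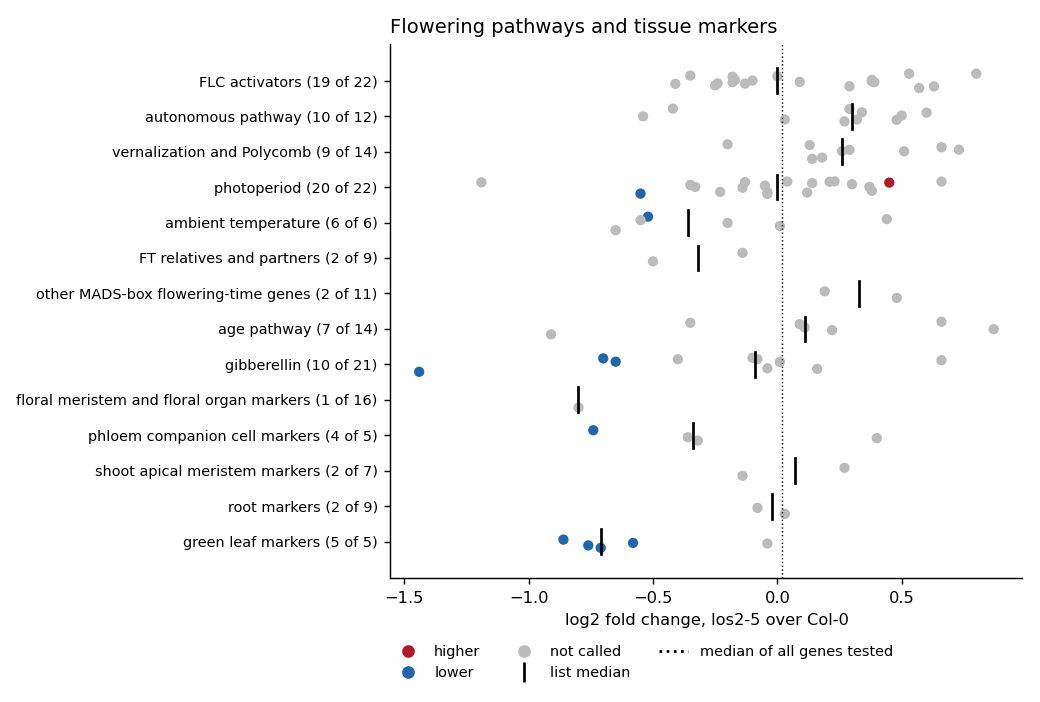
Log2 fold change (los2-5 over Col-0) of each tested gene in the flowering lists and tissue marker lists, with genes tested of genes listed in brackets; colour marks the edgeR call, the black bar is the list median and the dotted line the median of all genes tested (0.02). The called genes are 1 photoperiod gene above 0 (TEM2) and, below 0, genes of photoperiod, ambient temperature, gibberellin, phloem and green leaf lists.

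Tissue markers were set beside the SOC1 result, since SOC1 is expressed in the shoot apex and in leaves. Of 7 markers of the shoot apical meristem 2 were tested and 0 were called in edgeR, as with the p before adjustment under 0.05, with DESeq2 and with limma-voom. The floral and root markers also had 0 called in these 4 ways. The summed level of the shoot apical meristem markers was 71.5 to 76.7 CPM in los2-5 and 74.0 to 80.9 CPM in Col-0, and WUS had 0 counts. CLV1 held most of that sum, with means of 63.5 CPM in los2-5 and 69.8 CPM in Col-0. Floral meristem and organ markers were near 0: 1 of 16 was tested, the sum was 3.22 to 4.96 CPM in los2-5 and 5.16 to 8.85 CPM in Col-0, and CAL, SUP, STK and UFO had 0 counts. LFY and AP1, the genes that mark the switch to flower formation, had 11 and 1 counts in los2-5, against 5 and 1 in Col-0. AG, a floral organ identity gene, had 2 counts in los2-5 and 13 in Col-0, a ratio of 0.132 (exact 95% interval 0.0144 to 0.581), with no overlap. SEP4, the floral marker tested, stood at -0.80 with no overlap and was not called (adjusted p = 0.155, edgeR). Root markers had 2 of 9 tested, with sums of 54.7 to 81.6 CPM in los2-5 and 65.2 to 75.3 CPM in Col-0 and with RHD6 and EXPA7 at 0. PYK10 held most of the root sum, with means of 58.7 CPM in los2-5 and 61.8 CPM in Col-0. PHT1;4, a phosphate transporter gene of this list with too few counts for the fit as reported, had 47 counts in los2-5 and 15 in Col-0 (ratio 2.68, exact 95% interval 1.47 to 5.16). With no filter, with either of 2 other filters and without los2-5 replicate 3, edgeR called 1 root marker higher, and with no filter 1 floral marker lower. Of 5 green leaf markers 4 fell in los2-5, among them RBCS1A (-0.76 ± 0.12). The part of these markers in the changes of FLC and SOC1 was not tested.

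By profile over the 6 libraries, the 3 genes most like FLC among 13898 compared were AT4G31270 (Pearson r = 0.9975 of log2 CPM), AT2G28940 (0.9962) and SNRK2-8 (0.9904). The 3 most like SOC1 were AT1G24267 (0.9932), AT2G43850 (0.9894) and AT4G34270 (0.9873). Each r rests on the same 6 libraries, 3 of each genotype, so that genes compared share each library's depth and the genotype difference, and these were the highest of all r computed.

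**Figure D5:**
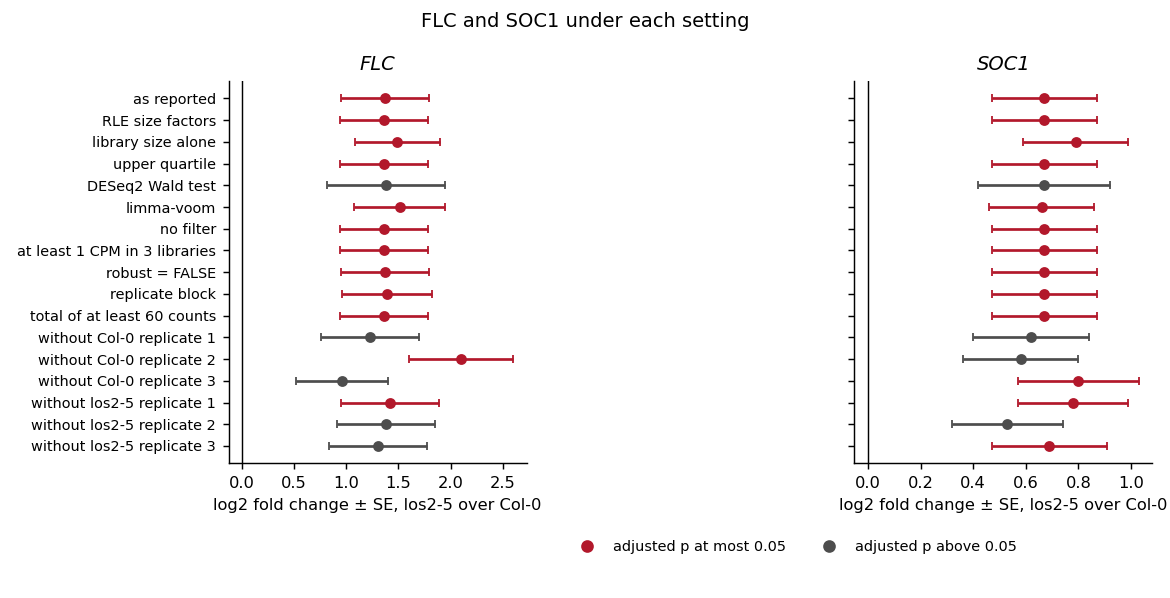
Log2 fold change ± SE (los2-5 over Col-0) of FLC and SOC1 as reported and under the 16 alternatives, red where the adjusted p is at most 0.05. Both genes stay above 0 throughout; FLC spans 0.96 to 2.1 and is called in 11 alternatives, SOC1 spans 0.53 to 0.80 and is called in 12.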

How the data were processed

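Raw counts for 37051 genes in 6 libraries were deposited by the authors and used unchanged; 0 columns of the table lay outside these samples. STAR, edgeR and TAIR10 are named, without versions, per the submitters' processing notes. All 37051 identifiers matched the TAIR10.1 annotation of RefSeq. Sequences, gaps and overlaps were read there by locus identifier; the deposited table holds no coordinates.

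Genes were kept with filterByExpr (minimum count 10, total 15), which left 13952. After TMM scaling, genotypes were compared with edgeR 4.0.16 (glmQLFit with robust = TRUE, glmQLFTest, genotype as the sole term) in R 4.3.3, at a Benjamini-Hochberg adjusted p of at most 0.05. SE is the absolute log2 fold change over the square root of F. DESeq2 1.42.0 and limma 3.58.1 (voom), other scalings and filters, a replicate block and leaving out each library were alternatives. Ratios of summed counts have exact 95% intervals; a count of 0 is taken to allow 3 counts. Likeness used log2 CPM with a prior count of 2 and those genes whose mean reached 2 CPM. The procedure was tested on simulated data.

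The members and lists were chosen with earlier results of these data known. Named genes are the 9 members, up to 3 called genes per direction and list with the smallest p, the neighbours and overlapping genes of called members and the 3 genes most like each. Others named were picked after their values were seen. Same-numbered libraries were not taken as pairs, since no label says that they pair.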

Additional observations from a re-analysis of the deposited data

How the results depend on the processing

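The tested members kept the sign of their log2 fold change in all 16 alternatives except MAF3, which was 0.08 without Col-0 replicate 2 (range without single libraries -0.35 to 0.08). For FLC the value with DESeq2 was 1.38 and the range without single libraries 0.96 to 2.1. For SOC1 they were 0.67 with DESeq2 and 0.53 to 0.80. With library size alone, which shifted all genes by a median of 0.122, MAF2 was at 0.69 and called, the mean of MAF4 in los2-5 was 0.448 CPM, and 2179 genes were called higher (68.8% of calls, against 48.4% with TMM). Without single libraries 1758 to 3143 genes were called, 831 to 1537 higher and 927 to 1606 lower, against 2861, 1384 and 1477. In the flowering lists 2 to 9 genes were called without single libraries, against 6. The cause was not tested. The correlation of deviations between same-numbered libraries was 0.051, -0.001 and -0.048, so the numbers were not taken to pair them. A replicate block gave FLC 1.39 and SOC1 0.67, changed no call among the members and raised the calls to 3115. MAF4, MAF5 and FT are limited by depth: without single libraries their log2 ratios ran from -0.71 to 0.69, 2.16 to 3.38 and -1.70 to -0.64.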
